A study of Mus musculus with 221 samples.

Results

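Hemogenic endothelium (HE) of the aorta-gonad-mesonephros (AGM) region was compared with HE of the large yolk sac arteries, gene by gene and isoform by isoform, in single mouse cells. The sample labels divide the AGM cells (HE AGM) and the arterial yolk sac cells (HE YSA) into early and late. These sets were taken as the study's clusters c3 and c4 for HE AGM and a1 and a2 for HE YSA. Of 51 HE AGM cells and 57 HE YSA cells, 49 and 52 had library totals at or above the limit of 17595 estimated counts, so 101 of the 221 cells of the series were used. The 2 HE AGM cells left out held 130 and 152 counts and the shallowest one kept held 30323. The highest total left out in HE YSA was 17493 and the lowest kept was 18543. The cells came from untreated embryos of Gfi1-GFP and Runx1b-RFP reporter mice on a C57BL/6JOlaHsd background crossed to CD-1 females, at embryonic day (E) 9.5 and E10.5 for the AGM and E9, E9.5 and E10.5 for the yolk sac. Both populations therefore carry the reporters. AGM cells were sorted as RUNX1+, KIT-, CDH5+, GFI1+ or GFI1-, CD41- and CD45-, and yolk sac cells as RUNX1+, KIT+, CD31+, GFI1+ or GFI1-, CD41- and CD45-. The gates differ, so the levels of those genes describe the sort as much as the cells and are not treated as results.

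HE is endothelium that lines embryonic vessels and turns into blood cells, a step known as the endothelial-to-hematopoietic transition, which needs the transcription factor RUNX1. The HE of the dorsal aorta gives rise to hematopoietic stem cells and depends on Notch signalling, in which a ligand such as Jagged on 1 cell triggers the release of the intracellular part of a Notch receptor on its neighbour. The yolk sac arteries give rise to lymphomyeloid progenitors instead. A gene can yield several transcripts, called isoforms, that differ in their first exon, their last exon, the exons between them or an intron that is kept.

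Complementary DNA of each cell, made by the Smart-seq2 protocol, was read on a nanopore instrument, where 1 read can cover a whole transcript. The level of a gene is given as CPM, the estimated counts of all its transcripts summed over a population or cell and scaled to an equal library total. HE AGM held 3329331 counts, with a median total of 59311 per cell, and HE YSA held 1905457, with a median of 34483.5. The cells were spread over 3 nanopore runs, with 17, 16 and 16 cells of HE AGM and 18, 17 and 17 of HE YSA. The labels name no embryo, so each population counts as 1 sample. No test between them is possible, and the intervals given are 95% exact Poisson intervals for levels and 95% exact binomial (Clopper-Pearson) intervals for shares. They cover counting error only, since amplified reads without molecular identifiers are not independent molecules.

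Tissue and cDNA project went together. Of the 49 HE AGM cells, 43 came from project GL34, 5 from GL43 and 1 from GL36, and 51 of the 52 HE YSA cells came from GL69. Differences between the tissues and between the projects therefore cannot be told apart. One HE YSA cell came from GL43, and 2 others carry AGM in their library names. Results with and without these 3 cells are given below. Stage is given in the labels for 1 HE AGM cell, at E10.5, and for 51 HE YSA cells, of which 35 are E10.5, 14 are E9.5 and 2 are E9.

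Genes with a mean CPM of at least 10 over both populations were compared, 8661 in all. The median log2 ratio of HE AGM to HE YSA was 0.18, and 0.11, 0.20 and 0.20 in runs 1, 2 and 3. The pooled ratio passed 1.5 on the log2 scale for 1909 genes (22%), with 1388 higher in HE AGM (16%) and 521 higher in HE YSA (6.02%). A stricter limit was used for the rest of the text, under which the ratio also passed 1 the same way in each run and at least 1 count was found in over 50% of the cells of the higher population. It was passed by 598 genes (6.9%), of which 422 were higher in HE AGM (4.87%) and 176 higher in HE YSA (2.03%). Without the 3 yolk sac cells above it was passed by 607 genes, 427 and 180.

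The same limit set beside other pairs of groups gave fewer genes where both groups came from 1 tissue. It was passed by 52 of 7733 genes (0.672%) between HE of the yolk sac plexus (HE YSP, 49 cells) and HE YSA. Between the late and the early cluster it was passed by 88 of 8860 genes (0.993%) within HE AGM and by 42 of 7757 (0.541%) within HE YSA. Within the early clusters alone 554 genes separated HE AGM from HE YSA, and 654 within the late clusters. These pairs share cells with the main comparison and with each other.

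The 176 genes higher in HE YSA were mostly pseudogenes. Processed pseudogenes, which are reverse-transcribed copies of other genes, made up 125 of them and 25 of the 422 genes higher in HE AGM, and the median log2 ratio of the 1248 processed pseudogenes compared was -0.65. Of 6746 protein-coding genes, 313 were higher in HE AGM (4.64%) and 40 higher in HE YSA (0.593%), and their median was 0.33. A ratio above 0 was found for 61.4% of the 6746. These shares are the ones to set beside the counts given for gene lists. NanoCount, the program that gave the counts, divides a read between the transcripts it matches, so a gene and its copies share reads. The ribosomal protein genes Rps16 and Rplp1 had log2 ratios of 4.41 and 4.16, which became -0.27 and -0.22 when counts of the pseudogenes named after them were added. Rpl39 and Rps4x kept ratios of 4.05 and 3.36 after the same step.

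**Figure D1:**
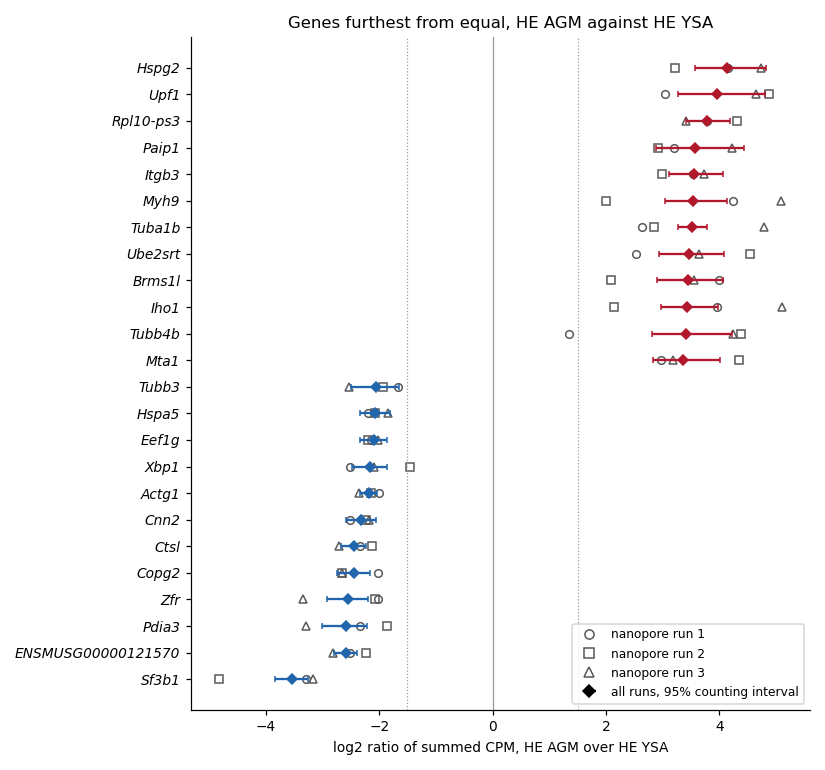
Log2 ratio of summed CPM, HE AGM over HE YSA, for the 12 top and the 12 bottom protein-coding genes by ratio among those that passed the limit with a mean CPM of at least 50 (ribosomal protein, Gm and Rik genes left out). Diamonds with bars are all cells with the 95% counting interval, open symbols are the 3 nanopore runs, and dotted lines mark 1.5. Hspg2 at 4.13 and Sf3b1 at -3.54 are the outermost genes, and every run lies on the side of the pooled value.

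Notch pathway genes were higher in HE AGM. All 14 compared had a ratio above 0, beside 61.4% of all protein-coding genes. Their median log2 ratio was 1.22 (0.88, 1.69 and 0.97 in runs 1, 2 and 3) beside 0.33 for all protein-coding genes. The list's median longest transcript is 5506.5 bases, and the 1349 protein-coding genes of 5057 bases and over had a median of 0.91. Ratios centred on the median gene are lower by 0.18 throughout, which puts Crtc1 (0.03) below 0 here and lowers the counts of genes above 0 given for other lists. The limit was passed by 3 of the 14, beside 4.64% of all protein-coding genes: the receptor Notch1, the ligand Jag2 and Nrarp, a target gene that dampens the pathway. The study chose the list on overlapping cells, so its counts are not independent evidence of a direction. Notch1 lay between 0 and 297 CPM per cell in HE AGM, with a median of 9.22, and between 0 and 116 in HE YSA, with a median of 0. At least 1 estimated count, the meaning of "found" in all that follows, was present in 25 of 49 HE AGM cells and 4 of 52 HE YSA cells. Most HE YSA cells thus stood at 0, as did close to 50% of the HE AGM cells, so the ranges overlap. Summed, Notch1 reached 49.0 CPM (41.7–57.1) and 4.20 CPM (1.81–8.27), a log2 ratio of 3.46 that ran from 1.15 in run 1 to 5.20 in run 3.

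Depth differs between the populations, so cells were also thinned to 28000 counts each, which kept 49 HE AGM and 33 HE YSA cells. Notch1 was then found in 22 and 3 cells and Nrarp in 22 and 2. Nrarp stood at 56.8 CPM (49.0–65.5) in HE AGM and 8.40 CPM (4.80–13.6) in HE YSA. Jag2 stood at 56.5 and 16.3 CPM. The ligand Jag1 had a log2 ratio of 3.55, at 33.6 and 2.62 CPM, and was found in 14 and 3 cells, too few to pass the limit. Among the other genes of the pathway, Notch4 (1.30), Rbpj, the DNA-binding partner of the released receptor (1.23), and the ligand-activating ligase Mib1 (1.22) had middling ratios, and the target genes Hey2 (0.92), Hes1 (0.70) and Hey1 (0.45) lower ones.

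Arterial genes had ratios on both sides of 0. Of 15 arterial genes compared, 12 had a ratio above 0, beside 61.4% of all protein-coding genes. The median was 0.45, close to that of all protein-coding genes, of which 4.64% passed the limit toward HE AGM. Efnb2, the arterial ephrin, was the only one to pass, at 141 CPM (128–154) against 45.1 CPM (36.1–55.7), and its log2 ratio was 1.74 between the early clusters and 0.39 between the late ones. The gap-junction gene Gja5 had a ratio of 0.16 and its relative Gja4 one of -0.77. Ltbp4 (2.45), Synpo (2.25) and Unc5b (1.75) were past 1.5 in the sums but not past the limit, and were found in 12, 19 and 22 HE AGM cells and 3, 4 and 7 HE YSA cells. Bmx (0.61), Tmem100 (0.34) and Mecom (0.52) had smaller ratios.

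Transcription factors of blood and stem cells were higher in HE AGM as a group. Of 21 compared, 20 had a ratio above 0, with Gfi1b at -0.74 the exception, and the median was 1.22. The limit was passed by 4: Tal1, Lmo2, Spi1 and the sort gene Runx1. Among all protein-coding genes 61.4% were above 0 and 4.64% passed toward HE AGM. TAL1 and LMO2 sit in 1 DNA-binding complex that specifies blood from mesoderm. Tal1 ranged from 0 to 248 CPM per cell in HE AGM, with a median of 19.4, and from 0 to 40.0 in HE YSA, with a median of 0. It was found in 25 and 4 cells, or 20 and 3 after thinning. The sums were 48.1 CPM (40.9–56.1) and 2.62 CPM (0.852–6.12), a log2 ratio of 4.06 with a counting interval from 2.94 to 5.84. Lmo2 was found in 40 HE AGM and 12 HE YSA cells, at 100 CPM (89.8–112) and 22.6 CPM (16.3–30.4). Its median cell stood at 91.7 CPM in HE AGM and at 0 in HE YSA. Spi1, which encodes the myeloid and lymphoid factor PU.1, stood at 195 CPM (180–211) and 54.6 CPM (44.6–66.1).

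The 8 genes that the study named as shared by all HE had a median of 0.13. Among them Mycn stood at 198 and 211 CPM, Gfi1, a sort gene, at 108 and 112 CPM, and Neurl3 at 27.6 and 34.6 CPM. Their counting intervals overlap for each of these 3 genes. They do not for Hapln1, a matrix link protein, at 70.0 CPM (61.3–79.6) and 48.8 CPM (39.4–59.8), nor for Runx1, a sort gene and the only member to pass, at 72.7 CPM (63.8–82.4) and 22.6 CPM (16.3–30.4).

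**Figure D2:**
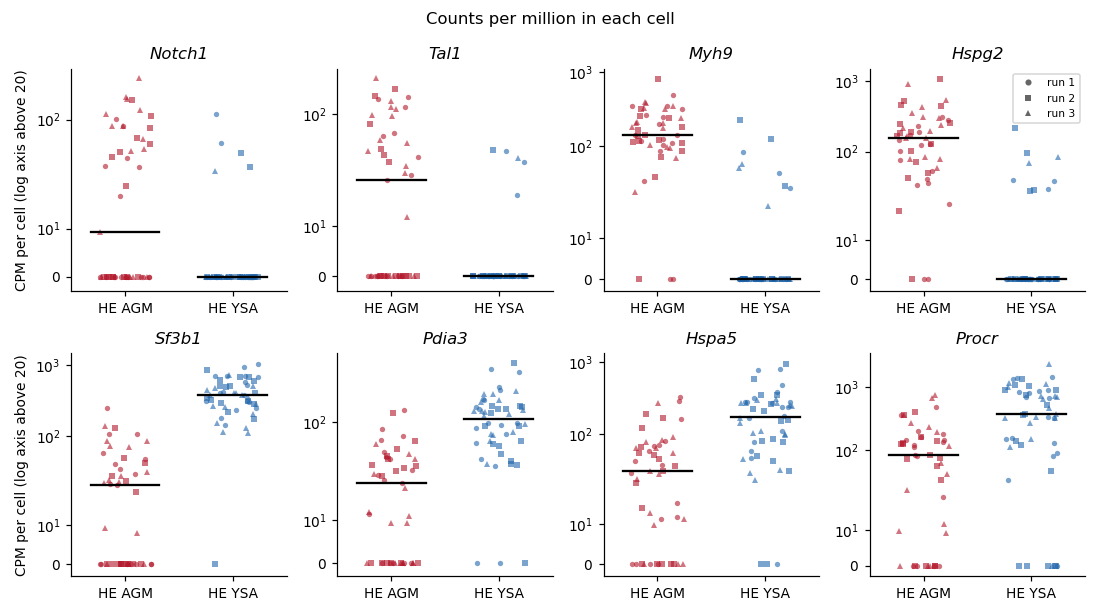
CPM in each of 49 HE AGM and 52 HE YSA cells for 8 genes, on an axis that is linear to 20 and logarithmic above, with symbols for the nanopore run. Notch1, Tal1, Myh9 and Hspg2 have a median of 0 in HE YSA, and Sf3b1, Pdia3, Hspa5 and Procr have higher medians in HE YSA, with cells of both populations at 0 in each panel.

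Chromatin modifiers were higher in HE AGM as a group. Of 54 compared, 46 had a ratio above 0, beside 61.4% of all protein-coding genes. The median log2 ratio was 1.19 (0.96, 1.20 and 1.41 by run). The limit was passed by 13 modifiers, all higher in HE AGM, beside 4.64% of all protein-coding genes. They include readers of histone marks and DNA-bound proteins (Cbx1 at 2.30, Psip1 at 2.29, Brd2 at 2.23 and Cbx3 at 1.67), the DNA methyltransferases Dnmt3b (2.28) and Dnmt1 (1.60), and the histone methyltransferases Ezh2 (1.86) and Kmt2d (1.52). Nucleosome remodellers among them were Arid1a (1.80), Smarcc1 (1.63) and Chd7 (1.57), and the deacetylase Hdac1 (1.5) passed as well. Psip1 encodes a protein that links active chromatin to RNA processing. It was found in 36 HE AGM and 9 HE YSA cells, at 71.8 CPM (63.0–81.5) and 14.4 CPM (9.76–21.2). The Polycomb gene Rnf2 was the only one past 1.5 the other way, at -1.70, and did not pass the limit. The median longest transcript of the list is 5911.5 bases beside 3194 for all protein-coding genes compared, and that length moved with the ratio is described further on.

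RNA-processing genes had lower list medians than the chromatin modifiers and include the furthest gene on the HE YSA side, Sf3b1, described with the transcripts. Spliceosome genes had a median log2 ratio of 0.76 over 38 genes, hnRNP genes 0.65 over 28 and SR and related genes 0.66 over 27. The limit was passed by 5 spliceosome genes higher in HE AGM and 1 higher in HE YSA, by 6 hnRNP genes higher in HE AGM, and by no SR gene. Among all protein-coding genes 4.64% passed it toward HE AGM and 0.593% toward HE YSA. Prpf19, a ubiquitin ligase of the catalytic spliceosome, was found in 34 HE AGM and 2 HE YSA cells, at 67.9 CPM (59.3–77.3) and 2.10 CPM (0.572–5.37). U2af2, which binds the tract before the 3′ splice site, stood at 131 CPM (119–144) and 16.5 CPM (11.1–23.1). Snrpd1, a core snRNP protein, had a log2 ratio of 2.99, Sf3a2 one of 2.71 and the helicase Snrnp200 one of 1.55.

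Hnrnpl, an RNA-binding regulator of exon inclusion, was found in all 49 HE AGM cells, between 27 and 1281 CPM with a median of 414. In HE YSA it was found in 23 of 52 cells, between 0 and 480 CPM with a median of 0. Its log2 ratio of 2.71 was 2.82, 1.71 and 3.26 by run. Hnrnpul1 (2.36), Hnrnpll (2.36), Hnrnpul2 (2.28), Hnrnpa1 (2.20) and Hnrnpa0 (1.99) passed as well. The SR genes Srsf2 (1.45), Srsf1 (1.26) and Srsf9 (0.82) had ratios below the limit, and Srsf2 stood at 587 CPM (561–613) and 215 CPM (194–236). Arglu1 had a ratio of 1.40, Ythdf2 one of -0.27 and Rpl34 one of 0.04.

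Genes of nonsense-mediated decay and the exon junction had a median of 1.02. Of 19 compared, 4 passed, all higher in HE AGM, beside 4.64% of all protein-coding genes. Besides the helicase Upf1 (3.95), these were Alyref, an export adaptor at 172 CPM (158–186) against 26.1 CPM (19.5–34.6), and the exon-junction components Rbm8a (2.47) and Casc3 (2.25). Casc3 was found in 26 HE AGM and 7 HE YSA cells.

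Genes of mitosis were higher in HE AGM. Of 23 compared, 21 had a ratio above 0, with a median of 1.16, and 4 passed: Mki67, Top2a, Anln (2.11) and Birc5 (1.68). Among all protein-coding genes 61.4% were above 0 and 4.64% passed toward HE AGM. Mki67, which encodes the proliferation antigen Ki-67, was found in 27 HE AGM cells and 1 HE YSA cell, with 2 counts in the latter. It stood at 71.8 CPM (63.0–81.5) and 1.05 CPM (0.127–3.79), and the counting interval of its log2 ratio of 5.78 ran from 4.23 to 9.15. Top2a, the topoisomerase of dividing cells, ranged from 0 to 1296 CPM in HE AGM with a median of 226, and from 0 to 494 in HE YSA with a median of 0. The genes of DNA replication did not follow: none of 22 passed, and their median of 0.42 lay near that of all protein-coding genes.

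Matrix and basement membrane genes had the highest median among lists with at least 10 genes compared, at 1.46 (0.97, 0.93 and 2.45 by run). Of 21 compared, 19 had a ratio above 0, beside 61.4% of all protein-coding genes. The limit was passed by 1 in each direction. Among all protein-coding genes 4.64% passed it toward HE AGM and 0.593% toward HE YSA. Hspg2, which encodes the basement membrane proteoglycan perlecan, ranged from 0 to 1081 CPM per cell in HE AGM, with a median of 157, and from 0 to 218 in HE YSA, with a median of 0. It was found in 44 and 8 cells, or 41 and 6 after thinning. The sums were 216 CPM (200–232) and 12.1 CPM (7.65–18.1), a log2 ratio of 4.13. Sparc, a collagen-binding matrix protein, had a ratio of -1.58. Laminin genes Lama4 (2.31), Lama5 (2.06) and Lamc1 (1.71) passed 1.5 in the sums but not the limit. The list's median longest transcript is 5784 bases.

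Itgb3, the beta chain of the vitronectin receptor, ranged from 0 to 826 CPM in HE AGM with a median of 201, and from 0 to 336 in HE YSA with a median of 0, in 40 and 10 cells. Myh9, the heavy chain of nonmuscle myosin, stood at 191 CPM (177–207) and 16.3 CPM (11.1–23.1), in 46 and 7 cells. The actin list, which holds Myh9, had a median of -0.39 over 27 genes. Of these, Actg1 (-2.18), Cnn2 (-2.31) and Myl6 (-1.78) passed the limit toward HE YSA, beside 0.593% of all protein-coding genes.

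Tuba1b, an alpha tubulin, stood at 820 CPM (789–851) and 71.1 CPM (59.9–84.4). Tubb4b had a log2 ratio of 3.41 that became -0.86 with its pseudogenes added, so no direction is given for it. Rpl10-ps3 and Ube2srt share reads with Rpl10 and Ube2s, and 92.7% of the Brms1l counts of HE AGM lay in a 436-base transcript, Brms1l-204. Paip1 (3.56), a partner of the poly(A)-binding protein, Mta1 (3.36), a chromatin remodelling subunit, and Iho1 (3.43), known for meiotic recombination, complete the leading genes.

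Imprinted genes, which are transcribed from 1 parental copy, had a median of 0.04. The limit was passed by 2 of 15 toward HE AGM, beside 4.64% of all protein-coding genes. Cdkn1c, an inhibitor of the cell cycle, was found in all 49 HE AGM cells, from 97.7 to 2396 CPM with a median of 397. In HE YSA it was found in 31 of 52 cells, from 0 to 593 CPM with a median of 55.1. Igf2r, the receptor that clears IGF2, stood at 159 CPM (145–173) and 33.1 CPM (25.4–42.3). The noncoding RNA H19 was found in every cell of both populations, at 5180 CPM (5103–5258) and 1897 CPM (1835–1960), a ratio of 1.45 with 1.38, 1.30 and 1.66 by run. It missed the limit by its pooled ratio, and the ranges per cell, 1313 to 11030 and 423 to 5322 CPM, overlap.

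Of 28 mitochondrially encoded genes compared, 2 passed toward HE AGM, beside 4.87% of all genes, and the median of the 28 was 0.39. The 2 were mt-Nd2 and mt-Nd4l, subunits of respiratory complex I, at 1321 against 346 CPM and 848 against 213 CPM. Of 73 nuclear genes of the respiratory chain, Uqcrq (2.67), Uqcrb (2.33), Cox6b1 (2.20) and 2 others passed, 5 in all beside 4.64% of protein-coding genes, while the list's median was 0.02, or -0.16 with ratios centred on the median gene.

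Few protein-coding genes were higher in HE YSA, and several of them work in the endoplasmic reticulum. Pdia3, a disulfide isomerase there, ranged from 0 to 140 CPM in HE AGM with a median of 18.5, and from 0 to 560 in HE YSA with a median of 108. It stood at 21.3 CPM (16.7–26.9) and 129 CPM (113–146), a log2 ratio of -2.59. Hspa5, the chaperone BiP, ranged from 0 to 333 CPM with a median of 30.8, and from 0 to 961 with a median of 175. Its ratio was -2.07, and -2.19, -2.07 and -1.84 by run. Xbp1, a transcription factor of the unfolded protein response, had a ratio of -2.17. These genes were grouped after their values were seen. Others were the RNA-binding gene Zfr (-2.55), the coat protein gene Copg2 (-2.45), the lysosomal protease Ctsl (-2.45), the elongation factor gene Eef1g (-2.10) and the tubulin Tubb3 (-2.05).

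Procr, the endothelial protein C receptor, was higher in HE YSA while the endothelial genes as a group were not. It ranged from 0 to 754 CPM in HE AGM, with a median of 84.3 over cells, and from 0 to 2327 in HE YSA, with a median of 376. The sums were 147 CPM (134–160) and 563 CPM (530–598), a log2 ratio of -1.94 with -2.18, -2.04 and -1.78 by run. It was -1.09 between the early clusters and -4.25 between the late ones, a difference that was not tested. The 26 core endothelial genes had a median of 0.12 (-0.07 with ratios centred on the median gene). Toward HE AGM, Cdh5, a sort gene, passed at 1.56, and Flt1 (1.66) and Mcam (1.57) were past 1.5 in the sums only. Cldn5 (-1.33), Sox17 (-1.14) and Robo4 (-1.09) lay below 0 without passing, and Vwf stood at 434 CPM (412–457) in HE AGM and 202 CPM (182–223) in HE YSA.

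Genes of antigen presentation and interferon response had a median of -0.50 over 11 genes. Of these, Bst2 and H2-D1 passed toward HE YSA, beside 0.593% of all protein-coding genes. Bst2, the interferon-induced tetherin, stood at 40.2 CPM (33.7–47.7) and 141 CPM (125–159). H2-D1, a class I histocompatibility gene, stood at 69.8 CPM (61.0–79.3) and 201 CPM (181–222). The glycolytic genes Eno1 (-1.69) and Tpi1 (-1.66) passed toward HE YSA in a list of 23 genes compared whose median was 0.51. Proteasome genes had a narrow spread, with 8 of 30 above 0, none past the limit and a median of -0.34 (-0.35, -0.32 and -0.38 by run).

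Markers of the yolk sac plexus endothelium were found in 45 of 49 HE AGM and 47 of 52 HE YSA cells, with medians of 118 and 229 CPM per cell, while Lyve1 and Stab2 came from few cells. Lyve1, a hyaluronan receptor, stood at 1.5 CPM in HE AGM, 39.4 CPM in HE YSA and 667 CPM in HE YSP, and was found in 2 HE AGM and 7 HE YSA cells. Stab2, a scavenger receptor, stood at 0.3 CPM (0.00760–1.67), 68.8 CPM (57.5–81.6) and 432 CPM, and was found in 1 HE AGM and 2 HE YSA cells. None of the 8 genes compared of this list passed, and each had a ratio below 0.

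**Figure D3:**
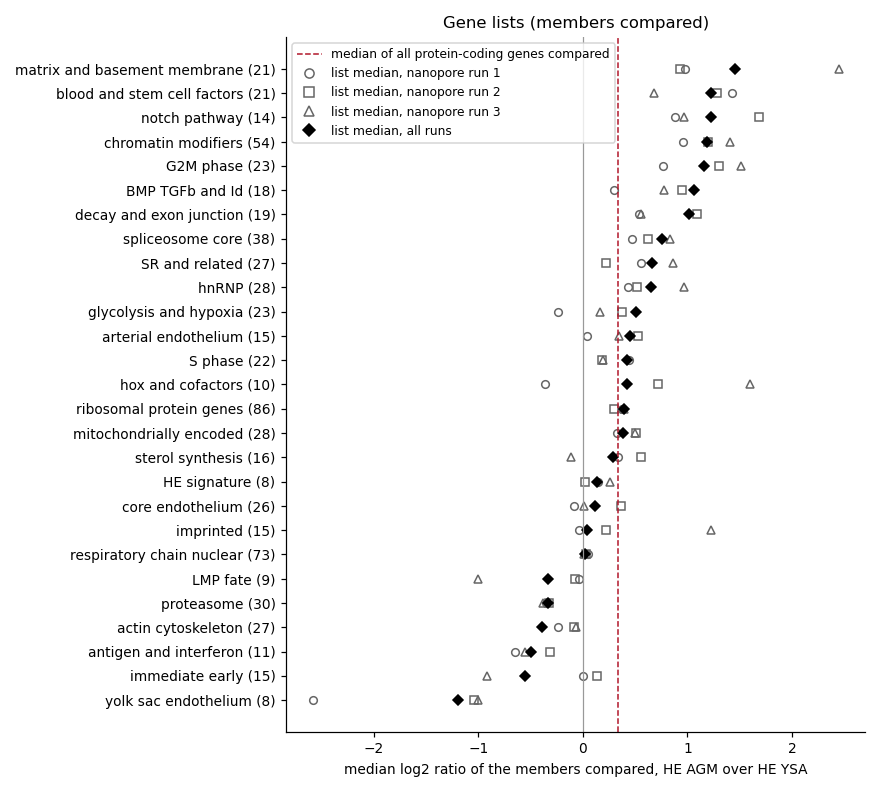
Median log2 ratio of the compared members of gene lists, HE AGM over HE YSA, with the number compared in parentheses. Lists with at least 8 genes compared are drawn, without the sort genes and Gm pseudogenes. Diamonds are all cells, open symbols the nanopore runs, and the dashed line is the median of all protein-coding genes, 0.33. Matrix, blood factor, Notch, chromatin, mitosis, BMP and TGF-beta, and decay and exon junction lists lie above 1. Proteasome, LMP fate, actin, antigen, immediate-early and yolk sac endothelium lists lie below 0.

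Markers of other cell types had low sums in both populations, and 1 HE AGM cell held many erythroid counts. Erythroid markers summed to 234 CPM in HE AGM and 46.2 CPM in HE YSA, with counts in 13 and 7 cells, and the highest cell held 11912 CPM in HE AGM and 872 CPM in HE YSA. Hbb-bh1 was found in 1 HE AGM cell, at 2862 CPM, and the highest HE AGM value was 3631 CPM for Hbb-y and 2701 CPM for Hba-x. The 4 erythroid genes compared had a median log2 ratio of 2.74, which was 7.39 in run 1 and -3.27 in run 3. Megakaryocyte markers summed to 38.1 and 40.4 CPM, macrophage markers to 118 and 103 CPM, mesenchyme markers to 11.1 and 19.9 CPM, and yolk sac endoderm markers to 12.9 and 11.5 CPM. Epithelial and gonad markers summed to 51.1 and 27.6 CPM. No gene of these 6 lists passed the limit. The sort genes matched endothelium: Cdh5 stood at 586 and 198 CPM, Pecam1 at 246 and 228 CPM, and Ptprc, which encodes CD45, held 2 counts in HE AGM and 0 in HE YSA. Kit stood at 166 CPM (152–180) in HE AGM, sorted as KIT-, and at 101 CPM (87.5–117) in HE YSA, sorted as KIT+.

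Transcript length moved with the ratio. When protein-coding genes were ordered by their longest annotated transcript and cut into 5 groups of equal size, the median log2 ratio was -0.23 in the shortest group and -0.03, 0.38, 0.67 and 0.91 in those that follow. By GC content the 5 groups had medians of 0.34, 0.37, 0.27, 0.25 and 0.44. Transcripts of at least 2000 bases held 22.5% of the counts in HE AGM, from 15.8% to 31.4% per cell, and 12.7% in HE YSA, from 8.42% to 16.5%. The ranges overlap in a narrow band only. By run the shares were 20.3%, 21.2% and 24.6% against 13.2%, 11.5% and 13%.

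The share of long transcripts was 12.5% in HE YSP and 11.1% in the yolk sac progenitor cluster p1, and 18.1% in the AGM cluster c5. The HE YSA cell of project GL43 had 11.7%, and the 5 HE AGM cells of that project had 23.5% to 31.4%. The other 2 HE YSA cells with an AGM name had 12.6% and 13.4%. In the same 3 cells the 422 genes higher in HE AGM held 1.44% to 1.74% of the counts. Those genes held 4.84% to 10.9% in HE AGM cells of GL34 and 6.57% to 8.56% in HE AGM cells of GL43. All of these cells were in the comparison that chose the 422 genes, so the shares are not independent of that choice. One cell cannot separate project from tissue.

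**Figure D4:**
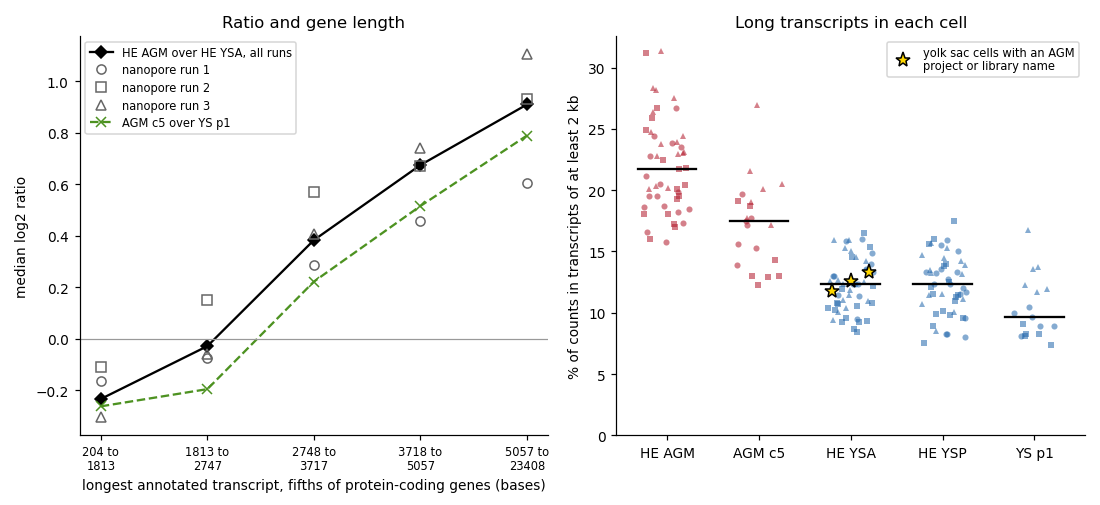
Left, median log2 ratio of protein-coding genes in 5 groups by longest annotated transcript, for HE AGM over HE YSA (black, runs as open symbols) and for c5 over p1 (green crosses). Right, percent of each cell's counts in transcripts of at least 2000 bases, with a line at the median. The ratio increases with length in both comparisons, from -0.23 to 0.91 and from -0.26 to 0.79, and the 3 yolk sac cells with an AGM project or library name (stars) lie within HE YSA.

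Length also marked the genes on each side of the limit. The median longest transcript was 3641 bases for the 313 protein-coding genes higher in HE AGM and 2100 for the 40 higher in HE YSA. The leading transcript of a gene, the one with more HE YSA counts than any other, had a median length of 2652 and 830.5 bases in these sets. Over all genes it was 1806.5. In 23 of the 40 genes (57.5%) the leading transcript was under 1000 bases, beside 28.3% of all genes. Pdia3 was read mostly as Pdia3-204 of 400 bases, with 207 of 246 counts in HE YSA. In HE YSA, Hspa5 was read mostly as Hspa5-204 of 477 bases, which is annotated as a target of nonsense-mediated decay, and Zfr as Zfr-210 of 812 bases. Of the 12 lowest ratios, 4 genes had a leading HE YSA transcript over 1000 bases: Sf3b1-203 (3403), Copg2-201 (3961), Xbp1-201 (2129) and Actg1-205 (1021). Actg1-205 held 32.9% of the gene's HE YSA counts. The part of length in these ratios was not tested.

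Sf3b1, a branch-point component of the spliceosome, was the furthest gene on the HE YSA side. It ranged from 0 to 250 CPM per cell in HE AGM, with a median of 20.4, and from 0 to 1060 in HE YSA, with a median of 378, in 26 and 51 cells. It stood at 34.2 CPM (28.2–41.1) and 399 CPM (372–429), a log2 ratio of -3.54 with -3.30, -4.82 and -3.17 by run. Nearly all HE YSA counts, 682 of 761, lay in Sf3b1-203, a transcript of 3403 bases and 10 exons annotated with a retained intron. The full-length coding transcript Sf3b1-201, of 25 exons, was given 24.5 counts in HE AGM and 4.5 in HE YSA. Sf3b1-207, of 3350 bases and annotated with a retained intron, was given the same 24.5 and 4.5, so these counts cannot be credited to the coding form. In the GENCODE M21 models on GRCm38 the kept intron lies between exons 4 and 5 of Sf3b1-201, at chr1:55014563-55016375 on the minus strand, and its 1813 bases are whole in Sf3b1-203. The sequences below show what sets these transcripts apart, with the first 60 bases of the kept intron (chr1:55016316-55016375) in capitals and the coding transcript's joined exons in lower case.
Sf3b1-203: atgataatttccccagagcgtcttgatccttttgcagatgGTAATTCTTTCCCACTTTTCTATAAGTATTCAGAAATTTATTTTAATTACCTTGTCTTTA
Sf3b1-201: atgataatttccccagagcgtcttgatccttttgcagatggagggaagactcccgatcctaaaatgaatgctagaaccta

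The ratios were next set beside cells of neither population. Cluster c5 of the AGM (21 cells) and cluster p1 of the yolk sac (17 cells) share the tissues and cDNA projects but no cell with HE AGM and HE YSA. Of the 422 genes higher in HE AGM, 400 had a ratio above 0 in c5 over p1 and 295 (69.9%) passed 1.5, beside 20.9% of all genes compared. Of the 176 genes higher in HE YSA, 175 had a ratio below 0 and 137 (77.8%) passed 1.5, beside 10%. The leading genes are among them: Tal1 stood at 31.8 CPM in c5 and 3.05 CPM in p1, and Sf3b1 at 23.8 and 311 CPM. Genes past the limit were thus also apart between AGM and yolk sac cells outside the HE clusters. Itgb3 stood at 53.7 and 0 CPM and Hnrnpl at 478 and 77.7 CPM.

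A smaller set separated the HE populations but not c5 and p1. Of the 353 protein-coding genes past the limit, 27 had a c5 to p1 ratio under 0.25 in the direction of the main one, a cut chosen after the values were seen. Jag2 (1.78) had no count in c5 and 1.52 CPM in p1, and Tnfaip2 (2.74) had no count in either. Plxnd1, a semaphorin receptor of endothelium, stood at 241 CPM in HE AGM, 66.7 CPM in HE YSA, 55 CPM in c5 and 54.8 CPM in p1. Zfp598, a sensor of collided ribosomes (3.65), the splicing regulator Hnrnpll (2.36) and Zfp36l1, which binds AU-rich RNA (2.62), had c5 to p1 ratios of -0.11, 0.03 and -1.05. Procr was the only one higher in HE YSA, at 15.2 CPM in c5 and 16.8 CPM in p1. Notch1 held few counts in c5, at 1.32 CPM, and none in p1.

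Isoform fractions were compared in 1774 genes with at least 100 counts in each population and 20 in each run of each. An isoform fraction is an isoform's share of its gene's summed counts, and the difference of 2 fractions, HE AGM minus HE YSA, is called dIF. The isoform with the largest dIF passed 0.1 in 956 genes (53.9%), and in 469 (26.4%) it also passed 0.1 the same way in each run. Without the 3 yolk sac cells with an AGM project or library name the second count was 463. Of the 469 genes, 26 had a level ratio past 1.5 on the log2 scale, beside 92 of all 1774 compared. The same limit was passed by 28 of 1513 genes (1.85%) between HE YSP and HE YSA, by 41 of 1405 (2.92%) between late and early HE AGM, and by 143 of 651 (22%) between c5 and p1.

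The isoform that gained share in HE AGM was the longer one in 377 of the 469 genes (80.4%), beside 61.6% of the 818 genes whose dIF did not pass 0.1. It was the longer one in 78.9%, 77.6% and 80.0% of them in runs 1, 2 and 3. Median lengths were 1777 bases for the isoform that gained and 851 for the one that lost. Of 450 pairs with gene models, the isoform that gained ended more than 100 bases further 3′ in 353 (78.4%) and the one that lost did so in 30 (6.67%). In the 1226 pairs of compared genes that did not pass, these shares were 58.2% and 13.1%. At the 5′ end the counts were even, 138 (30.7%) and 141 (31.3%), beside 27.7% and 31.9% in the pairs that did not pass. The isoform that gained was coding and the one that lost was not in 118 genes, and the reverse held in 68. Among the 818 genes whose dIF did not pass 0.1 these counts were 206 and 153. Isoforms annotated for nonsense-mediated decay gained in 32 genes and lost in 68, and isoforms with a retained intron gained in 60 and lost in 47. In the 818 genes the counts were 53 and 52 for decay and 119 and 121 for a retained intron. Whether these shares follow from the difference in long transcripts between the libraries was not tested.

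**Figure D5:**
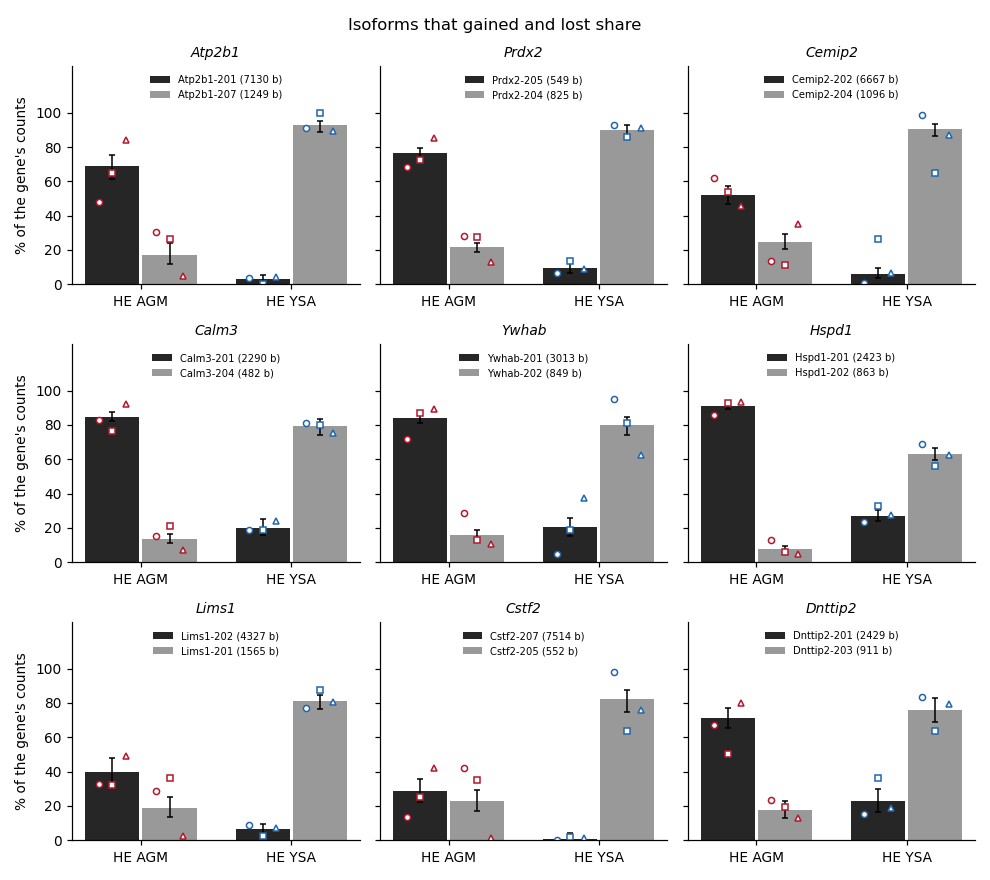
Percent of a gene's counts in the isoform that gained (black) and the one that lost (grey) in HE AGM, for 9 of the 10 protein-coding genes with the largest dIF. Bars are all cells with 95% exact binomial intervals and open symbols the 3 nanopore runs, and lengths are in bases (b). Atp2b1-201 holds 68.8% of the gene's counts in HE AGM against 3.02% in HE YSA. Prdx2 is the one gene whose gained isoform is the shorter of the pair.

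Atp2b1, the plasma membrane calcium pump, differed most. Atp2b1-201, of 7130 bases, took 119 of 173 counts in HE AGM (68.8%, 61.3–75.6) and 9 of 298 in HE YSA (3.02%, 1.39–5.66). Atp2b1-207, of 1249 bases, took 17.3% and 92.6%. Among cells with at least 5 counts of the gene, the median share of Atp2b1-201 was 98.2% in 14 HE AGM cells and 0% in 24 HE YSA cells, whose highest value was 28.6%. The gene's level was higher in HE YSA, with a log2 ratio of -1.59.

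Several of these are housekeeping genes. Calm3, a calmodulin gene, was read as Calm3-201 (2290 bases) in 84.9% of HE AGM counts (82.1–87.5) and 20.1% of HE YSA counts (15.9–24.9). The remainder was mostly Calm3-204 of 482 bases, which has no defined coding sequence. Ywhab, a 14-3-3 protein gene, was read as Ywhab-201 (3013 bases) in 84.3% (81.1–87.1) and 20.2% (15.4–25.9). Hspd1, the mitochondrial chaperonin, was read as Hspd1-201 (2423 bases) in 90.8% of 1378 counts (89.2–92.3) and 27.2% of 747 counts (24.0–30.5), at nearly equal levels (log2 ratio 0.08). Its share lay between 32.1% and 100% in 47 HE AGM cells and between 0% and 68.9% in 40 HE YSA cells, so the ranges overlap while the medians were 95.5% and 17.9%. In Cemip2, a hyaluronidase, Lims1, an integrin adaptor, and Cstf2, a cleavage factor of 3′ end formation, isoforms of 6667, 4327 and 7514 bases gained share. They held 51.9%, 39.8% and 28.6% of HE AGM counts and 5.94%, 6.53% and 0.915% of HE YSA counts. The Cstf2 isoform is annotated with a retained intron.

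In Dnttip2 the isoforms of the pair differ at the start, at a stretch inside the transcript and in the whole 3′ part, which only the longer one has. The inner stretch is shown here since it alone has shared sequence on both sides. Capitals mark the bases that the other isoform lacks, lower case is shared sequence, and both are from GENCODE M21 models on GRCm38. Dnttip2, a chromatin-bound nucleolar protein, was read as Dnttip2-201 in 71.3% of 237 counts (65.1–77.0) and 22.6% of 155 (16.3–30). Its stretch of 163 coding bases lies at chr3:122275423-122275585 on the plus strand, and Dnttip2-203, which lacks it, has no defined coding sequence.
Dnttip2-201: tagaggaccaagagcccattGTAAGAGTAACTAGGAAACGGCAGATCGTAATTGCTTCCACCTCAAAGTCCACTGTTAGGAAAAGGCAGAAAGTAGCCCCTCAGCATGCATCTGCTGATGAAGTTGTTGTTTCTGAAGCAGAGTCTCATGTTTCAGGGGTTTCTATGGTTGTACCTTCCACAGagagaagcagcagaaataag
Dnttip2-203: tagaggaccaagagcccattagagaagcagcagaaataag

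Prdx2, a peroxide-reducing enzyme, went the other way in length. Prdx2-205, of 549 bases and annotated with a retained intron, took 752 of 980 counts in HE AGM (76.7%, 74.0–79.3) and 39 of 421 in HE YSA (9.28%, 6.67–12.4). Its share was 19.1% to 100% in 48 HE AGM cells with at least 5 counts, with a median of 73.1%, and 0% to 43.3% in 35 HE YSA cells. The coding isoform Prdx2-204, of 825 bases, took 21.6% and 90.2%. The gene's level had a log2 ratio of 0.41.

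Genes that the study names for splicing, as factors or as examples, did not pass the isoform limit where they had enough counts. Rpl34, Arglu1, Ythdf2 and Pfn1 are the study's examples of splicing that differs between AGM and yolk sac HE. It found them in its short-read Smart-seq2 data, which had higher coverage than the nanopore reads used here. The largest dIF was 0.12 in size for Srsf9, 0.08 for Rpl34, 0.07 for Srsf2 and Hnrnpl, and 0.05 for Arglu1. Pfn1 was read as Pfn1-201 in 98.6% of 11663 counts in HE AGM and 98.5% of 9663 counts in HE YSA. Psip1, Casc3, Ythdf2, Sf3b1 and Upf1 had too few counts in at least 1 population or run.

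Runx1 had 242 counts in HE AGM and 43 in HE YSA, under the minimum of 100, and is given as values. Runx1-201, of 5861 bases, took 188 of the 242 (77.7%, 71.9–82.8) and 5 of the 43 (11.6%, 3.89–25.1). Runx1-202, of 4738 bases, took 24 of 242 (9.92%, 6.46–14.4) and 24 of 43 (55.8%, 39.9–70.9). By run, Runx1-201 took 27 of 43, 24 of 44 and 137 of 155 counts in HE AGM and 4 of 11, 1 of 12 and 0 of 20 in HE YSA, so its share differed the same way in each run. Runx1-201 starts 128821 bases further 5′ in the genome than Runx1-202 and also ends 2190 bases further 3′. A read that covers only the far 3′ end therefore matches Runx1-201 alone, whatever its start, and the table does not show which bases each read covered.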

How the data were processed

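Nanopore reads were basecalled, trimmed and cleared of chimeras by the authors, mapped to GENCODE transcripts (another release than the models used below) with minimap2 2.26 and passed to NanoCount. The deposited table used here holds its estimated counts per transcript and cell, raw and often fractional. The deposited TPM were not used. Cells were grouped by the cluster in the sample labels, and the limit on totals follows the study's median-based filter. Counts were summed by gene and population, rounded for intervals, and 0.5 counts were added to each sum for log2 ratios. No replicate is named, so edgeR's count test was not run and edgeR 4.0.16 gave only TMM scaling factors. The limits of 1.5, 50% of cells and a dIF of 0.1 follow the study's methods.

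Named genes are the 12 highest and the 12 lowest ratios, up to 4 per list with the largest ratios and any that the study names, the 10 with the largest dIF, the sort genes, and Sf3b1, Rps4x, Rpl39 and Upf1. Some results that this rule or the lists cover are not reported here. Other genes printed are list members past the limit or genes of the Notch, arterial and matrix lists, and those set beside c5 and p1 were chosen after their values were seen. The members and all 34 lists were chosen with earlier results of these data known. 795 of 797 list genes were matched, 16 by older names. Venous endothelium (1 of 4 compared, Nrp2 at -1.92), BMP and TGF-beta (1.06), LMP fate (-0.33), EMP fate (0.12), Hox (0.42), immediate-early (-0.55) and sterol (0.29) medians complete the lists. Transcript models and sequences came from GENCODE M21 (GRCm38), matched by identifier and length for 94.5% of isoform pairs; GC content was matched for 99.6% of genes. 92 compared genes have counts identical to another gene's. The calculations were checked on simulated counts. Python 3.11.15, numpy 2.4.6, pandas 2.3.3, scipy 1.17.1, matplotlib 3.10.9 and R 4.3.3 were used.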

Additional observations from a re-analysis of the deposited data

How the results depend on the processing

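The 598 genes past the limit (422 higher in HE AGM, 176 in HE YSA) became 1554 (1120 and 434) with nanopore run 3 alone. A single run needs no agreement between runs, and runs 1 and 2 alone gave 727 and 694 genes by this looser limit. The count was 394 (328 and 66) with CPM taken outside ribosomal protein, mitochondrial and pseudogene counts. It was 361 (279 and 82) with a log2 limit of 2 and 1166 (826 and 340) with no limit on the share of cells. Genes higher in HE AGM numbered 276 in cells with totals of 30000 to 60000, where run 3 has no HE AGM cell. With 1 run left out in turn, only 2 runs had to agree. The counts were then 507 to 889, 354 to 649 and 153 to 241, the highest for HE AGM without run 1. The share of calls on the HE AGM side was 70.6%, or 56.1% with ratios centred on the median gene, 83.2% with the restricted CPM and 64.5% with TMM factors. The 469 isoform genes were 26.4% of the 1774 compared, and the number compared changed with the setting. They became 189 of 770 (24.5%) in cells of 30000 to 60000 counts and 169 of 769 (21.98%) with cells thinned to 28000 counts. Early and late clusters alone gave 231 of 911 (25.4%) and 232 of 936 (24.8%). A minimum of 200 counts gave 284 of 1062 (26.7%), and coding isoforms only gave 265 of 1128 (23.5%). Run 2 alone, where no agreement between runs is needed, gave 212 of 484 (43.8%). Of the same 1774 genes, 194 passed with a dIF limit of 0.2 and 956 without the limit by run. The range over left-out runs was 406 to 577 genes, or 33.2% to 36.4% of those compared, again with agreement needed in 2 runs only. The difference in the share of long transcripts, 9.80 points, was 7.13 in run 1 alone. The cause was not tested. Among the named genes, Rps16 (-0.27), Rplp1 (-0.22) and Tubb4b (-0.86) reversed with pseudogenes added. In that setting 6 of the 422 genes higher in HE AGM had a ratio below 0, and none of the 176 had one above 0. Of 3942 values for 152 named genes under these alternatives, 3591 moved little, 348 moved and 3 reversed. Of 220 values for 22 list medians, 177 moved little and 43 moved. List genes past the limit toward HE AGM, 54 as reported, numbered 36 with ratios centred on the median gene, 43 in thinned cells and 46 to 79 with 1 run left out. No paired analysis was possible because the labels name no embryo or replicate that the populations share. Depth limits genes with few counts in HE YSA, whose ratios have wide counting intervals.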
